A study of Bos taurus with 8 samples.

Results

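The genes followed here were 10 members of the ADAMTS family (ADAMTS1, ADAMTS2, ADAMTS3, ADAMTS4, ADAMTS5, ADAMTS6, ADAMTS9, ADAMTS12, ADAMTS14 and ADAMTS17), taken as every 3Kb genome window that carried one of these symbols. They covered 642 of the 902984 windows counted. The windows of the series carried 26227 combinations of gene name, chromosome and strand, each taken as a gene below. The set was chosen by the breed contrast of 1 window, the first of ADAMTS5, where read numbers differed between Holstein and Angus cattle, and the 9 relatives were set beside it. The breed values of that ADAMTS5 window are therefore given as a description, with no test.

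ADAMTS proteins are secreted zinc metalloproteinases that carry thrombospondin repeats and act on the extracellular matrix. One branch cleaves the large proteoglycans aggrecan and versican, another removes the amino-terminal propeptide of fibrillar procollagens, and further members act on cartilage and microfibril proteins. Dermal fibroblasts build and remodel this matrix in the skin.

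The DNA came from untreated dermal fibroblast cultures at passage 5, each grown from the skin of a different heifer sampled at one age: 4 Holstein (a dairy breed) and 4 Angus (a beef breed). In MIRA-Seq, sonicated DNA is passed over a methyl-CpG binding protein complex and the retained fragments are sequenced, so a window with more methylated CpG sites gives more reads. Each animal gave 1 culture and 1 library, and breed cannot be told apart from herd or rearing in this design. The assay reads genomic DNA, so the fibroblast label could not be checked against transcripts. Values below are CPM, the reads of a window per 1000000 reads in all windows of the library, and all windows have the same length.

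The libraries held 18691111 to 35525554 reads in windows, at which 3 reads correspond to 0.0844 to 0.161 CPM. Holstein 1 and Angus 3 stood apart, with 69.0% and 72.4% of reads in the 1% of windows with most reads, against 46.8 to 57.4% in the other 6 libraries. Their TMM factors, which rescale a library for such composition, were 0.817 and 0.677, against 0.952 to 1.22 in the others. Where leaving them out moved a result, its value without them is given.

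ADAMTS5 encodes a main aggrecan-cleaving enzyme of cartilage and a versican-cleaving enzyme of skin. The gene covered 17 windows on the plus strand of chromosome 1 (UMD v3.1, 8811701 to 8862700), and its first window, 8811701 to 8814700, held coding exon 1. The 4 Holstein libraries had 5, 11, 23 and 19 reads there, or 0.253, 0.476, 0.870 and 0.535 CPM. The 4 Angus libraries had 48, 33, 26 and 39 reads, or 1.68, 1.15, 0.873 and 2.09 CPM. Every Angus value lay above every Holstein value, but the gap between the nearest pair, Holstein 3 and Angus 3, was smaller than the worth of a single read. With TMM scaling those 2 libraries stood at 0.799 and 1.29 CPM, and the breeds were further apart.

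The ADAMTS5 first window averaged 0.533 ± 0.255 CPM over the Holstein libraries and 1.45 ± 0.542 CPM over the Angus libraries (SD, n = 4 each). The fitted log2 fold change (Holstein over Angus) was -1.52, and it lay between -1.83 and -1.40 when any 1 library was left out. Without Holstein 1 it was -1.41, and without Angus 3 it was -1.57. The window reached 1 CPM in 3 libraries, all Angus, and so fell short of the filter of 1 CPM in 4 libraries used for window tests.

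**Figure D1:**
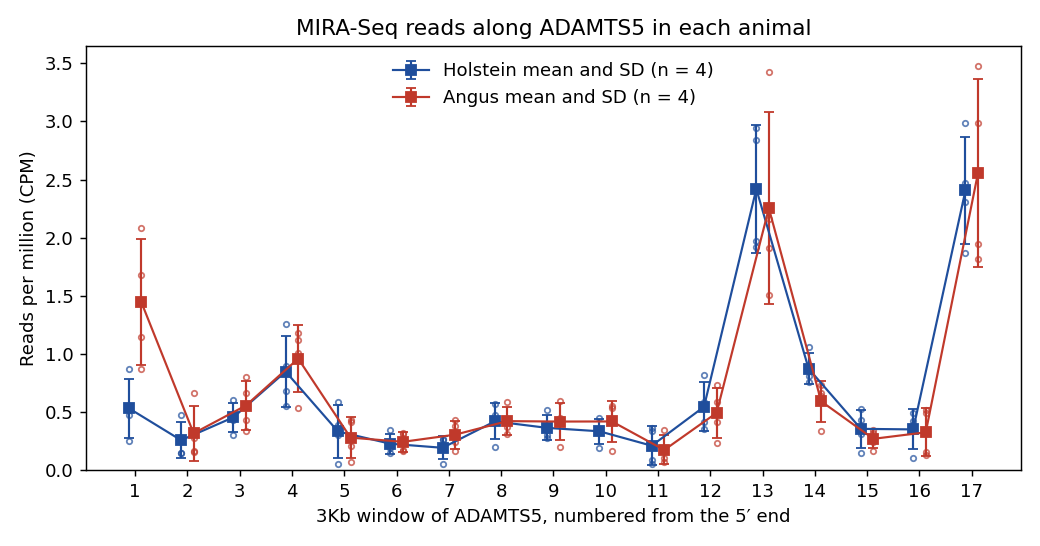
MIRA-Seq CPM (y axis) in each of the 17 windows of ADAMTS5, numbered from the 5′ end (x axis), with open points for single animals and squares with bars for the breed mean and SD (n = 4). The breeds are apart at window 1, at 0.533 and 1.45 CPM, and run together at the peaks in windows 13 and 17.

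Across the rest of ADAMTS5 the breeds had nearly the same level. The other 16 windows averaged 0.662 ± 0.144 CPM over the Holstein libraries, with 0.662 ± 0.177 CPM for the Angus libraries (SD, n = 4 each). Their log2 fold changes ran from -0.73 to 0.40 with a median of -0.15, and 10 of the 16 were negative. In 1 of them, window 14 with coding exon 6, the breeds did not overlap, and there Holstein was the higher (0.874 ± 0.131 against 0.593 ± 0.176 CPM, SD, n = 4 each). Summed over all windows but the first, the log2 fold change was -0.14 (SE 0.12).

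The most reads in ADAMTS5 lay in its last window, with coding exon 8, and in window 13, with coding exon 4. Window 17 held 2.41 ± 0.459 CPM in Holstein and 2.56 ± 0.808 CPM in Angus (SD, n = 4 each), and window 13 held 2.42 ± 0.549 and 2.25 ± 0.826 CPM. The breeds overlapped in both windows, with log2 fold changes of -0.19 (SE 0.17) and 0.00 (SE 0.18). Between these peaks and the first window, windows 5 to 11 stayed between 0.193 and 0.421 CPM on average over the 8 libraries.

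Outside the gene the difference was not seen. The 3 windows upstream of ADAMTS5 averaged 0.349, 0.352 and 0.274 CPM over the 8 libraries, and the 3 downstream averaged 0.0358, 0.0660 and 0.112 CPM. The breeds overlapped in each of these 6 windows. In the window directly before the gene, Holstein averaged 0.239 ± 0.115 and Angus 0.308 ± 0.130 CPM (SD, n = 4 each).

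The log2 ratio of the first window to the mean of the other windows of a gene compares positions within 1 library and does not depend on its total, apart from a pseudocount of 0.1 CPM added to both. In ADAMTS5 the Holstein libraries, in order of animal number, had ratios of -0.68, -0.61, 0.38 and -0.44. The Angus libraries had ratios of 1.15, 0.62, 0.93 and 1.24. The Holstein first window thus lay below the gene's own average in 3 of 4 libraries, and the Angus first window above it in 4 of 4. In each Angus library only 2 of the other 16 windows exceeded the first, whereas in Holstein 8, 6, 3 and 6 did.

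Among the first windows of the 10 genes, that of ADAMTS5 ranked highest in all 4 Angus libraries and in Holstein 3, and had rank 5 in the other 3 Holstein libraries. Its mean over 8 libraries, 0.990 ± 0.626 CPM (SD), was at percentile 81.7 of the first windows of 17008 genes with at least 3 windows, whose median was 0.379 CPM. The first windows of the 9 relatives had means of 0.118 to 0.691 CPM. None of the 10 first windows passed the filter of 1 CPM in 4 libraries.

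**Figure D2:**
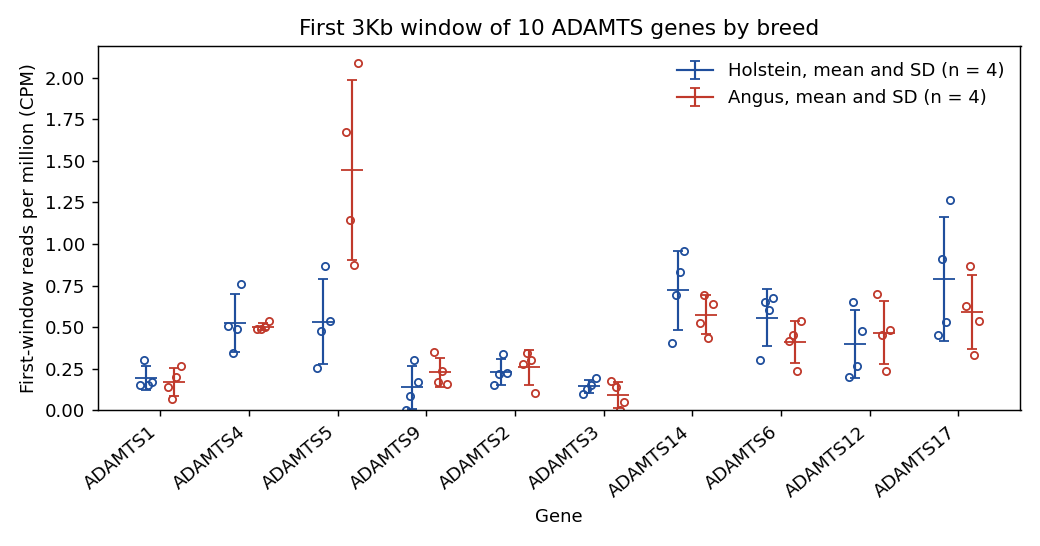
First-window CPM (y axis) of the 10 genes (x axis) in each library, with Holstein in blue and Angus in red, and breed means with SD (n = 4). Only in ADAMTS5 do the 4 Angus points all lie above the 4 Holstein points, and in the other 9 genes the breeds overlap.

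Among the relatives that cleave proteoglycans, the first windows of ADAMTS1 and ADAMTS9 were low, at percentiles 20.8 and 21.4 of all first windows, and that of ADAMTS4 was at percentile 62.1. ADAMTS1, which cleaves versican and aggrecan, covered 4 windows of chromosome 1 (8952701 to 8964700), and its first window held 3, 7, 4 and 6 reads in Holstein and 4, 2, 6 and 5 reads in Angus. Neither breed was the higher, at 0.194 ± 0.0733 and 0.170 ± 0.0847 CPM (SD, n = 4 each). The same gene rose along its length to 0.527 ± 0.181, 1.98 ± 0.393 and 1.59 ± 0.440 CPM (SD, n = 8) in windows 2 to 4.

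ADAMTS4, an inducible aggrecan-cleaving enzyme, had 3 windows on chromosome 3 (8322010 to 8331009) and the same rising shape. Its first window held 10, 8, 13 and 27 reads in Holstein and 14, 14, 15 and 10 in Angus, and the 4 Angus values were close together at 0.504 ± 0.0223 CPM (SD, n = 4). The next 2 windows held 3.00 ± 0.490 and 2.56 ± 0.386 CPM (SD, n = 8).

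ADAMTS9, a versican-cleaving enzyme, covered 53 windows of chromosome 22 (36875167 to 37040166). Its first window held 0, 2, 8 and 6 reads in Holstein and 10, 5, 7 and 3 in Angus. The breeds overlapped, and the log2 fold change of -0.83 (SE 0.50) was the largest in size among the 9 relatives but rested on at most 10 reads a library. Its highest window was the 46th, with coding exon 32, at 1.83 ± 0.451 CPM (SD, n = 8).

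Of the procollagen propeptidases, ADAMTS2 and ADAMTS3 had low first windows, at percentiles 31.9 and 10.4, and ADAMTS14 stood at percentile 70.3. ADAMTS2, the enzyme missing in the fragile-skin disorder dermatosparaxis of cattle, covered 70 windows of chromosome 7 (1955246 to 2165245). Its first window held 2 to 10 reads a library (0.246 ± 0.0871 CPM, SD, n = 8), and 68 of its 69 other windows had a higher mean. The peak was window 62, with coding exon 14, at 5.62 ± 1.19 CPM (SD, n = 8).

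ADAMTS14, which also removes procollagen propeptides, covered 33 windows of chromosome 28 (26983565 to 27082564). From a first window of 0.648 ± 0.190 CPM (SD, n = 8) it stepped to 4.53 ± 1.16 CPM in the second, close to its highest, window 24 with coding exon 7, at 4.64 ± 0.537 CPM. In its first window Holstein had 8 to 34 reads and Angus 12 to 20, and the breeds overlapped.

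ADAMTS3, which trims procollagen II and acts in the activation of the lymphatic growth factor VEGF-C, lay on the minus strand of chromosome 6 (89161982 to 89461981) in 100 windows. Its first window was the lowest of the 10, with 0 to 7 reads a library (0.118 ± 0.0649 CPM, SD, n = 8). Angus 3 had no read there.

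The first windows of the remaining 3 genes lay at percentiles 55.3 to 72.3 of all first windows. ADAMTS6, a member linked to fibrillin microfibrils, covered 93 windows of chromosome 20 (14006618 to 14285617), with 6, 15, 16 and 24 first-window reads in Holstein and 12, 13, 7 and 10 in Angus. ADAMTS12, which can cleave cartilage oligomeric matrix protein, covered 132 windows of the same chromosome (39910518 to 40306517), with 4, 15, 7 and 17 reads in Holstein and 20, 13, 7 and 9 in Angus. ADAMTS17, mutated in a human syndrome of short stature and displaced lenses, covered 137 windows of chromosome 21 (6513963 to 6924962), with 9, 21, 14 and 45 reads in Holstein and 18, 25, 10 and 10 in Angus. In all 3 the breeds overlapped, and the lowest Holstein count was that of Holstein 1.

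Taking both breeds together, the first window was lower than the rest of the gene in 7 of the 10 genes and higher in 1. The 10 include ADAMTS5, whose first window chose the genes and whose ratio is given as a description. The test was an exact two-sided sign-flip permutation test of the log2 ratio over 8 libraries, adjusted over 17008 genes, of which 52.4% were called lower and 19.2% higher at an adjusted p under 0.05. The smallest p that 8 libraries allow is 0.00781 before adjustment. The median ratio was -1.05 over the 10 genes and -0.47 over all genes tested. Against only those other windows that hold no coding exon, 3 of the 8 genes that have such windows were called lower and 2 higher. Beside these, 40.8% of 13714 genes were called lower and 25.3% higher. ADAMTS5 was 1 of the 2 higher, as a description.

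The 7 genes with a lower first window were ADAMTS1 at -2.40 ± 0.44, ADAMTS4 at -2.24 ± 0.27, ADAMTS2 at -2.18 ± 0.47, ADAMTS14 at -1.16 ± 0.21, ADAMTS9 at -0.93 ± 0.66, ADAMTS17 at -0.47 ± 0.34 and ADAMTS3 at -5.69 ± 0.49 on the log2 scale (SD, n = 8). The adjusted permutation p was 0.0132 for the 6 genes lower in 8 of 8 libraries, and 0.0236 for ADAMTS17, lower in 7 of 8. The value for ADAMTS3 is set by 7 windows described below and was -0.87 without them, still lower. The calls for ADAMTS9 and ADAMTS17 were lost when the median of the other windows replaced their mean, at -0.59 and -0.13.

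ADAMTS6 alone had a higher first window, by 0.96 ± 0.28 on the log2 scale (SD, n = 8; 8 of 8 libraries, adjusted permutation p = 0.0132). Its first window stood at 0.484 ± 0.161 CPM, against 0.193 CPM for the mean of its 92 other windows, and 4 of those were above it. ADAMTS6 also had the lowest level over its whole length of the 10 genes, 0.197 CPM a window. ADAMTS12, at 0.07 ± 0.32 (SD, n = 8), was not called, with an adjusted permutation p of 0.594. ADAMTS5 stood at 0.32 ± 0.80 (SD, n = 8), a description, since its first window chose the genes. The SD of ADAMTS5 was the largest of the 10, and its libraries split by breed as given above. With the median of the other windows the ADAMTS5 ratio was 0.96.

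**Figure D3:**
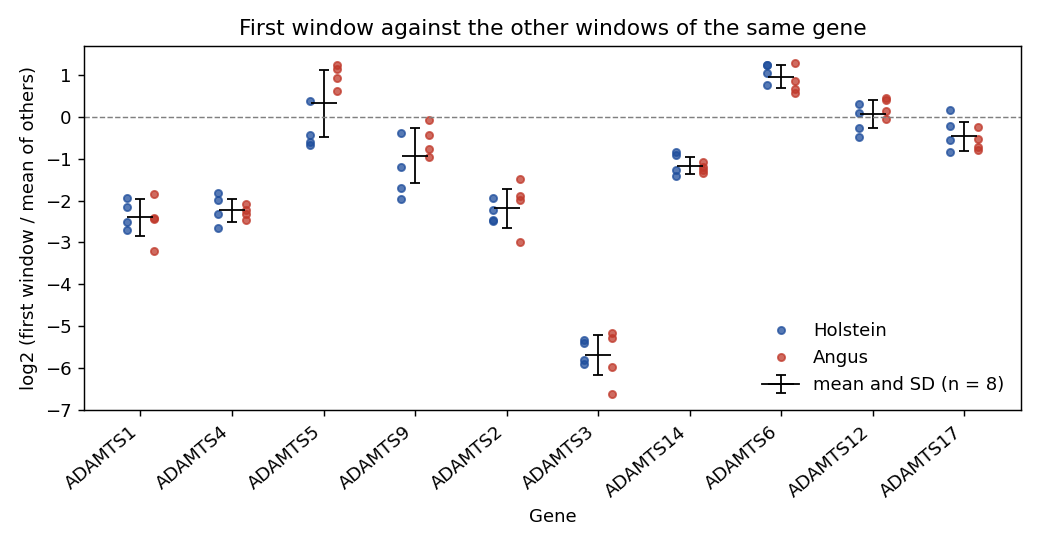
The log2 ratio of the first window to the mean of the other windows of the same gene (y axis, 0.1 CPM added to both) in the 10 genes (x axis), with a point for each library and the mean and SD over 8 libraries in black. ADAMTS6 lies above 0 in 8 of 8 libraries, 6 genes lie below 0 in all of them, and the ADAMTS5 points part by breed.

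Whether this ratio differed by breed was tested with limma over the same 17008 genes, and 0.0% of them were called at FDR < 0.1 (5.24% had an unadjusted p under 0.05). None of the 9 relatives was called and none had an unadjusted p under 0.05. The widest breed difference among them was in ADAMTS9, where Holstein averaged -1.30 and Angus averaged -0.56, and the difference was -0.75 (SE 0.36). In the other 8 the difference lay between -0.32 (SE 0.21) in ADAMTS12 and 0.23 (SE 0.20) in ADAMTS6.

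In the window test of breed, 142 of the 642 windows passed the filter, and 0 of them were called by edgeR's likelihood-ratio test at FDR < 0.1 and a fold of at least 2. Over all 115360 windows tested, 0.231% were called. An unadjusted p under 0.05 was reached by 1 of the 142 windows, against 4.94% of all tested. That count depended on the libraries: it was 0 without Holstein 2 or Holstein 4, 2 without Holstein 3, 3 without Holstein 1 or Angus 1, 4 without Angus 3 or Angus 4, and 5 without Holstein 1 and Angus 3 together, with 0 windows called each time. The edgeR quasi-likelihood test and DESeq2 also called 0, with 1 window each at an unadjusted p under 0.05. With no filter, and apart from the ADAMTS5 first window that the genes were chosen for, 0 of 641 windows were called (0.102% of 887821 windows with reads) and 28 had an unadjusted p under 0.05 (4.55% of all).

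The 142 windows that passed were spread unevenly: 57 were in ADAMTS17, 43 in ADAMTS2, 20 in ADAMTS14, 8 in ADAMTS3 and none in ADAMTS6. Their log2 fold changes ran from -0.43 to 0.62 with a median of 0.01. The single window at an unadjusted p under 0.05, named after its value was seen, was window 42 of ADAMTS2, a window without a coding exon, with 1.37 ± 0.393 CPM in Holstein and 0.762 ± 0.363 CPM in Angus (SD, n = 4 each; edgeR FDR = 0.841).

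Leaving out the ADAMTS5 first window that the genes were chosen for, every Angus library lay above every Holstein library in 4 of 641 windows on CPM. Of all windows with reads, 0.243% had this order. These were window 39 of ADAMTS3, window 10 of ADAMTS6 and windows 14 and 126 of ADAMTS12, named after their values were seen. None of those 4 holds a coding exon, each had between 1 and 16 reads a library, and their means were 0.115 to 0.314 CPM. The opposite order, every Holstein library above, was found in 7 of the 642 windows (1.09%, against 1.01% of all windows with reads). Their log2 fold changes were 0.40 to 1.56.

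Summed over each gene, 0 of the 9 relatives were called by the same edgeR test, against 0.0721% of 19417 genes. Over the 10 genes, log2 fold changes ran from -0.26 in ADAMTS5 to 0.13 (SE 0.22) in ADAMTS3, with a median of -0.03. The ADAMTS5 value is a description with no SE, since the sum includes the window the gene was chosen for. Of the 9 relatives, 0 had an unadjusted p under 0.05 by edgeR's likelihood-ratio test, its quasi-likelihood test or DESeq2, against 2.11% of all genes by the first of these. The FDR was 1.00 in each of the 9 relatives. For ADAMTS17, with the most reads after ADAMTS3 (1932 to 5494 a library), the log2 fold change was -0.02 (SE 0.12).

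Windows of a gene differed more than libraries did, by a margin that varied. The SD of log2 CPM between windows was 2.77 to 5.15 times the median SD between libraries of a breed in ADAMTS1, ADAMTS2, ADAMTS3, ADAMTS4, ADAMTS5, ADAMTS14 and ADAMTS17. In ADAMTS12, ADAMTS6 and ADAMTS9 it was only 1.34 to 1.54 times that SD. In ADAMTS14 the windows spanned 0.0177 to 4.64 CPM, and in ADAMTS17 they spanned 0.0286 to 4.25 CPM. The profile was shared by the breeds: over the windows of each of the 8 genes with at least 9 windows, Spearman's rho between Holstein and Angus means was 0.85 to 0.98, as a description over windows that share libraries and base composition.

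**Figure D4:**
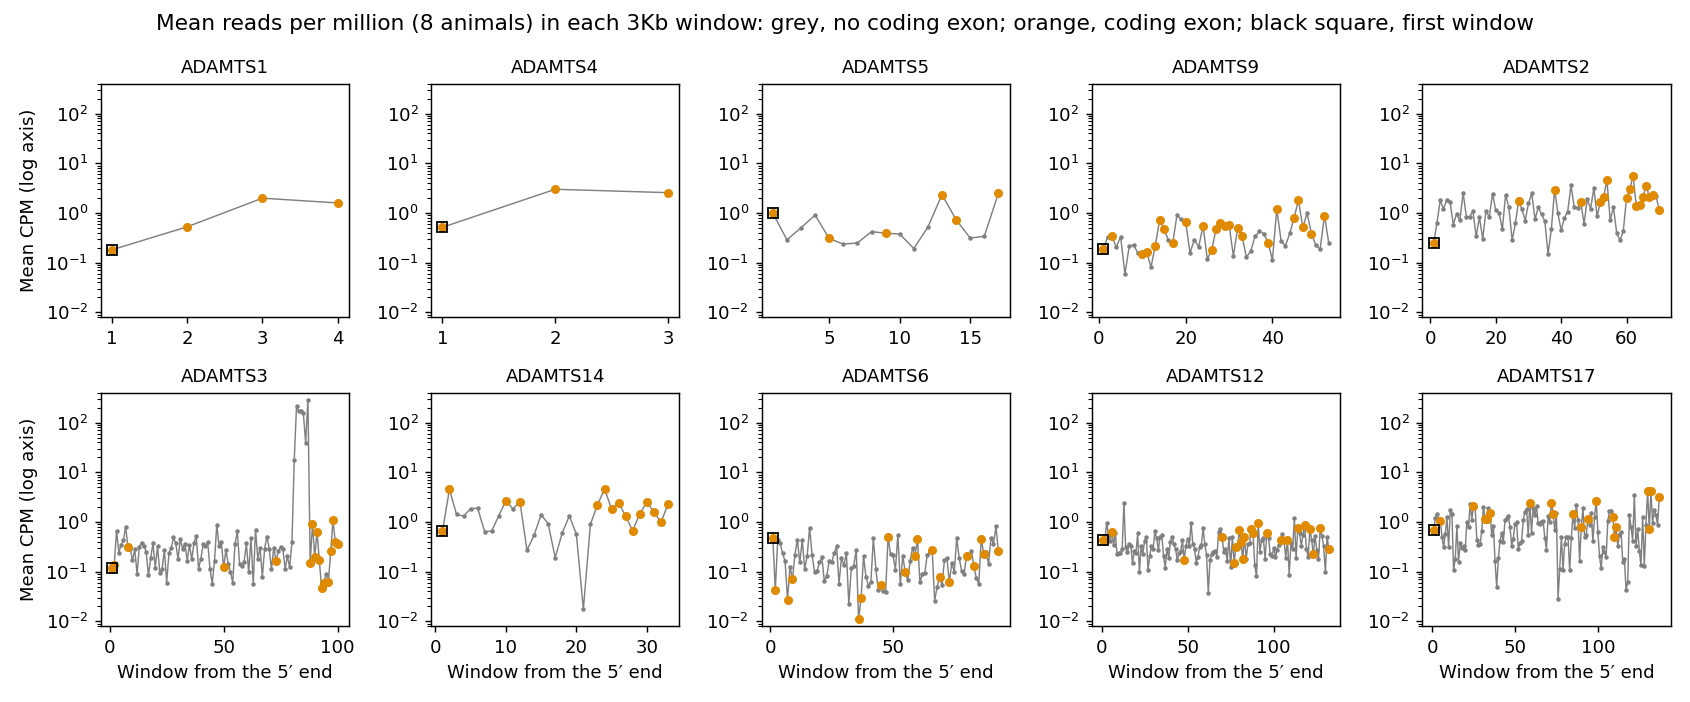
Mean CPM over 8 libraries (y axis, log scale) in every 3Kb window of the 10 genes, numbered from the 5′ end (x axis). Orange points hold a coding exon and the black square is the first window. ADAMTS1, ADAMTS4, ADAMTS2 and ADAMTS14 start low, ADAMTS6 starts above most of its windows, and ADAMTS3 has a block of 7 windows at 17.7 to 288 CPM.

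Windows with a coding exon held more reads than windows without one in 6 of the 8 genes that have both kinds, in 8 of 8 libraries each. Among 12692 genes with both kinds, 50.5% did so, and their median ratio was 1.35. The ratio of the means was 3.05 in ADAMTS5, 2.19 in ADAMTS14, 2.17 in ADAMTS17, 2.04 in ADAMTS2, 1.81 in ADAMTS9 and 1.42 in ADAMTS12. In ADAMTS6 the kinds were alike, at 0.194 and 0.197 CPM, with exon windows higher in 5 of 8 libraries. In ADAMTS3 windows without an exon were higher in 8 of 8, because its 7 highest windows hold none.

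The 3′ end held more reads than the 5′ end in 5 of 8 genes, too few genes to set against the share of all genes. With the windows of a gene cut into 3 equal runs, the run at the 3′ end averaged above the run at the 5′ end in 8 of 8 libraries in ADAMTS2, ADAMTS5, ADAMTS9, ADAMTS14 and ADAMTS17, and 45.6% of 8883 genes of at least 9 windows did the same. ADAMTS2 rose from 1.13 ± 0.239 to 1.98 ± 0.325 CPM and ADAMTS9 from 0.295 ± 0.0778 to 0.547 ± 0.126 CPM (SD, n = 8). ADAMTS12 was level, at 0.404 ± 0.110 and 0.404 ± 0.0960 CPM, and ADAMTS6 and, outside its highest windows, ADAMTS3 were split over libraries. The last window of ADAMTS17 reached 3.13 CPM, at percentile 97.6 of all windows.

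In ADAMTS12 and ADAMTS6 the highest window held no coding exon. In ADAMTS12 it was window 13, with 50, 67, 56 and 98 reads in Holstein and 64, 61, 57 and 57 in Angus, or 2.45 ± 0.417 CPM (SD, n = 8). All 8 libraries were high there and the breeds overlapped, while the next window averaged 0.314 CPM. In ADAMTS6 it was window 92 at 0.813 ± 0.290 CPM. ADAMTS17 peaked at window 130, with coding exon 19, at 4.25 ± 0.781 CPM (SD, n = 8).

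A block of 7 consecutive windows inside ADAMTS3 (81 to 87 from the 5′ end, chromosome 6, 89200982 to 89221981) held 96.5 to 98.6% of all reads of the gene in every library. These windows hold no coding exon and averaged 17.7 to 288 CPM, while the other 93 windows averaged 0.286 CPM with a highest mean of 1.08. The windows on either side of the block were at 0.152 and 0.397 CPM. Of all placed windows, 0.342% exceeded 10 CPM, and there were 123 runs of at least 5 such windows, 17 of them within 1 gene.

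The block summed to 1163, 1223, 1023 and 1137 CPM in Holstein and to 932, 888, 600 and 1459 CPM in Angus. The breeds overlapped, at 1136 ± 83.8 and 970 ± 358 CPM (SD, n = 4 each), and Angus held both the lowest library, Angus 3, and the highest, Angus 4. None of the 7 windows was called by breed, with log2 fold changes of -0.03 to 0.30. Within these windows the highest coverage was 6.78 to 21.3 times the mean coverage, so that reads were stacked over short stretches. The share of repeats in them and how reads with several matches were placed were not tested.

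**Figure D5:**
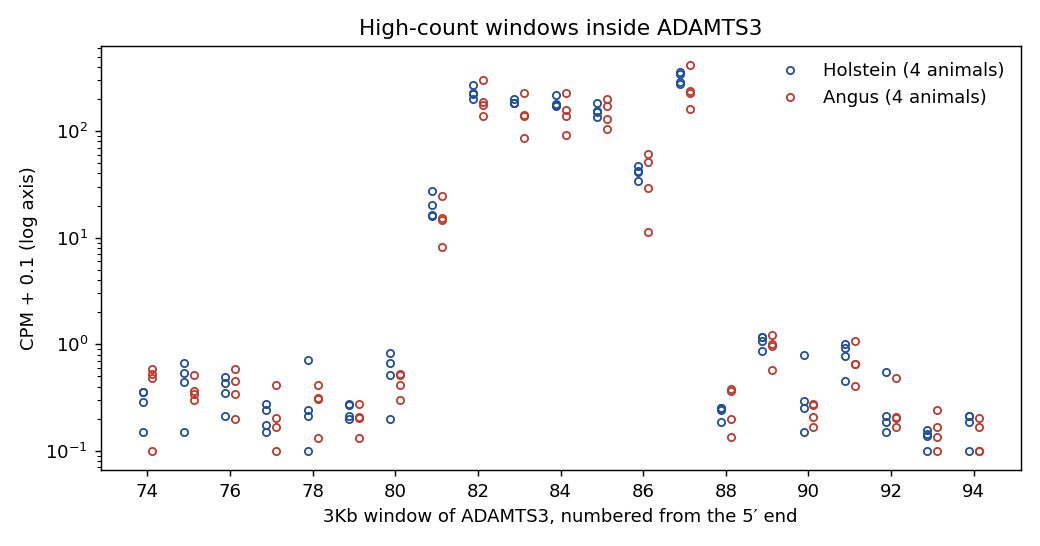
CPM plus 0.1 (y axis, log scale) in windows 74 to 94 of ADAMTS3, numbered from the 5′ end (x axis), with a point for each library. Windows 81 to 87 lie well above their neighbours in all 8 libraries of both breeds.

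The other genes of the pathway were read from the same fits, from lists of other ADAMTS genes, ADAMTS-like proteins, substrates and regulators. No window and no gene sum was called in any of the 4 lists by the edgeR test, beside 0.231% of all windows and 0.0721% of all gene sums tested. An unadjusted p under 0.05 was reached by 3 of 68 windows tested in 8 other ADAMTS genes, 2 of 41 in 6 ADAMTS-like genes, 7 of 79 in 15 substrate genes and 2 of 63 in 6 regulator genes, and by 1 gene sum, a substrate gene. Of all windows tested 4.94% reached it, and of all gene sums 2.11%. DESeq2 called no gene sum of these lists either, nor did the quasi-likelihood test, and both had 0 at an unadjusted p under 0.05. Of all 19417 gene sums, DESeq2 called 6 and the quasi-likelihood test 0, with 279 and 345 at an unadjusted p under 0.05.

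First windows in these lists were lower than the rest of the gene in 4 of 8 other ADAMTS genes, 6 of 6 ADAMTS-like genes, 13 of 15 substrate genes (1 was higher) and 5 of 6 regulator genes, by the same sign-flip test, which called 52.4% of all genes lower and 19.2% higher. Against only other windows that hold no coding exon, these became 2 of 6 (1 was higher), 4 of 5 (1 was higher), 4 of 11 (2 were higher) and 3 of 4 of the genes that have such windows, beside 40.8% lower and 25.3% higher of all genes. PAPLN, an ADAMTS-like gene, turned from lower (-0.95) to higher (0.55; adjusted permutation p = 0.0260) on the log2 scale. Without Holstein 1 and Angus 3, the lower counts were 4 of 8, 5 of 6, 10 of 15 and 5 of 6. Of all genes, 47.4% were lower in that setting. With the median of the other windows they were 3 of 8, 5 of 6, 10 of 15 and 5 of 6, beside 42.0%. There 2 of the 8 other ADAMTS genes and 1 substrate gene were higher, beside 24.2%. The lowest first window in CPM within each list was as follows. Among substrates it was COL3A1, the type III collagen chain (0.0528 ± 0.0421 CPM), and among regulators A2M, a broad protease inhibitor (0.0659 ± 0.0489 CPM). Among ADAMTS-like genes it was ADAMTSL1 (0.101 ± 0.0777 CPM), and among other ADAMTS genes ADAMTS19 (0.227 ± 0.137 CPM; SD, n = 8 each). The highest within the other ADAMTS genes was ADAMTS13, which cleaves von Willebrand factor (2.75 ± 0.442 CPM). Within the regulators it was FURIN, which removes the propeptide of many ADAMTS enzymes (1.75 ± 0.379 CPM). Within the ADAMTS-like genes it was PAPLN (1.58 ± 0.470 CPM), and within the substrates VWF, the factor itself (1.08 ± 0.289 CPM; SD, n = 8 each). The ADAMTS5 first window in Angus, at 1.45 CPM, lay within the range of these list maxima, and in Holstein, at 0.533 CPM, nearer the median of all first windows.

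The first windows whose log2 CPM followed that of ADAMTS5 most closely over the 8 libraries, among 6657 first windows with at least 0.5 CPM on average, were those of SNCB (beta-synuclein, Pearson's r = 0.976), NTRK2 (the receptor of brain-derived neurotrophic factor, 0.971) and CNTNAP1 (an axon-glia junction protein, 0.951). This is a description over the libraries that chose the gene. Their Holstein and Angus means were 0.479 ± 0.145 and 0.828 ± 0.249 CPM for SNCB, 0.411 ± 0.202 and 1.56 ± 0.596 CPM for NTRK2, and 1.08 ± 0.257 and 2.26 ± 0.754 CPM for CNTNAP1 (SD, n = 4 each). Angus was the higher breed on average in all 3, which follows from choosing them by likeness to the ADAMTS5 first window.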

How the data were processed

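DNA of 8 cultures (4 Holstein, 4 Angus) was enriched for methylated fragments and sequenced. Per the labels and the study's methods, the authors aligned reads to UMD v3.1 with NextGENe 2.3.4 (their processing notes also name CASAVA 1.7) and deposited raw read counts in consecutive 3Kb windows, with the mean and maximum coverage signal of each window. No input library was used, and the treatment of duplicate and multiply aligned reads is not given in the sources used here. Counts therefore depend on CpG density and copy number as well as on methylation.

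Counts were tested with edgeR 4.0.16 (TMM, likelihood-ratio test, Benjamini-Hochberg) in R 4.3.3 on windows, or gene sums, with CPM of at least 1 in at least 4 libraries. A call needed FDR < 0.1 and a fold of at least 2. For edgeR folds, SE is the absolute log2 fold change over the square root of the likelihood-ratio statistic. It is not a fitted standard error. Fold changes of listed windows under this filter came from the same fit with those windows added, so they are values with no test. The first window was the one at the 5′ end by strand, and a coding exon is the highest exon number the file names in a window. The sign-flip test used numpy 2.4.6 and the test of ratios by breed limma 3.58.1. All were tested on simulated data.

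Alternatives were DESeq2 1.42.0, the quasi-likelihood test, other scalings, filters, thresholds and pseudocounts (0.02 and 0.5 CPM), each library left out, and a replicate block. Animal numbers did not pair the libraries: deviations of equally numbered libraries correlated at -0.0199 on average over windows (range -0.216 to 0.111). Over gene sums the average was -0.0823, with a wider range of -0.502 to 0.165. Members and gene lists were chosen with earlier results of these data known. All 10 genes are named, with their first and highest windows and all ADAMTS5 windows. In the pathway lists the highest and lowest first window are named, and by likeness the 3 closest first windows. ADAMTS7 and ADAMTSL5 matched no gene name.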

Additional observations from a re-analysis of the deposited data

Results flagged for a closer look

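In 80 sets of 4 libraries tested for a single library far from the rest, 2 were set apart, both in ADAMTS1, and chance sets apart about 1 set in 20. The ADAMTS1 first window held 0.303 CPM in Holstein 2, from 7 reads, against 0.151, 0.152 and 0.169 CPM in the other 3 Holstein libraries. All windows of ADAMTS1 summed to 3.24 CPM in Holstein 1, against 4.48, 4.67 and 4.73 CPM in the other 3. Holstein 1 is 1 of the 2 libraries whose reads were most concentrated in few windows, and the part of this in the low sum was not tested.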

How the results depend on the processing

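Neither the first-window ratios of the 10 genes nor the fold change of the ADAMTS5 first window changed direction under the alternatives run. Among the pathway genes the first-window ratio did: with only other windows that hold no coding exon it turned in PAPLN (-0.95 to 0.55, called both ways), NCAN (-0.05 to 0.69, then called), COL3A1 (-0.49 to 0.26, no longer called) and PCSK6 (-0.24 to 0.10, not called). With the median, ADAMTS16 went from -0.62 to 0.02 and ADAMTS10 from -0.16 to 0.00, neither called there, and with a library left out ADAMTS19 and NCAN crossed 0 uncalled. Apart from the ADAMTS5 first window, which the genes were chosen for and which is given with no test, 0 member windows were called by breed under every alternative. This was 0 of 641 with no CPM filter, beside 905 of 887821 windows of the series. Without unplaced scaffolds it was 0 of 168, beside 153 of 138302. The replicate block called 0 member windows, 0 gene sums and 0 ratios, and gave -1.55 for the log2 fold change of the ADAMTS5 first window, against -1.52. Genes with a higher first window numbered 1, and became 2 with the median of the other windows, 2 with only other windows that hold no coding exon and 0 with a mean CPM minimum of 0.2, which leaves ADAMTS6 out. Genes with a lower first window fell from 7 to 3 with only other windows that hold no coding exon, where ADAMTS1 and ADAMTS4 have no such window and ADAMTS9 (-0.56) and ADAMTS17 (-0.26) were no longer called. ADAMTS5, at 0.96, was the gene added to those with a higher first window there and with the median. This is a description, since its first window chose the genes. ADAMTS17 was also no longer called without Holstein 1 and Angus 3, at -0.40, a setting chosen after seeing the data, as was the removal of the ADAMTS3 block. Leaving out 1 library at a time moved none of these counts by more than 1.5 times. First windows of 0 to 48 reads limit single-window folds at this depth, and intervals of counting error say nothing of the pull-down itself.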

Other observations

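ADAMTS5 and ADAMTS1 lie next to each other on chromosome 1 in the same direction. The 30 windows between them (90 kb) carry no gene name and averaged 0.266 CPM over the 8 libraries, with a median of 0.231 CPM. The first windows of the pair, at 0.990 and 0.182 CPM, were thus the one above and the other below the DNA that separates them.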
